A study of Mus musculus with 12 samples.

Results

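Cytokine messenger RNAs are made in bursts and removed quickly, and a small set of RNA-binding proteins sets how long they last. The 7 genes described here encode such proteins: Zfp36, Zfp36l1, Zfp36l2, Zc3h12a, Elavl1, Khsrp and Hnrnpd. They were taken by symbol from the 22935 genes of the count tables, and all 7 were found and passed the count filter that left 14146 genes for testing. The genes were chosen with earlier values of these libraries known, from the same 3 groups that are compared here, so their levels and differences are given as a description, with no p-value, and counts of members past a threshold are not read as a test.

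The cells were BV2, an immortalised mouse microglial line, so every library comes from 1 line and not from animals. The 3 groups were oxy-Hb with C3a, oxy-Hb with C3aRA and oxy-Hb alone, with 3 libraries each. All 3 groups received 10 µM oxy-Hb (oxyhaemoglobin, the oxygen-carrying form of the protein released by red cells). C3a, the fragment of complement C3 that binds the receptor C3aR, was added at 20 in a labelled unit of ug/ul that is uncertain, and C3aRA, which the labels do not spell out, at 50 µM. The study's title refers to white matter injury after subarachnoid haemorrhage and to C3 and its receptor. The 3 PBS samples were not analysed here, and no comparison shows what oxy-Hb did by itself. For brevity the first and second groups are called C3a and C3aRA below.

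Many cytokine, chemokine and immediate early transcripts carry AU-rich elements in the 3′ untranslated region (UTR), repeats of the pentamer ATTTA (with U for T in the RNA). Zfp36 (tristetraprolin) and its relatives Zfp36l1 and Zfp36l2 bind these elements through CCCH zinc fingers and recruit the CCR4-NOT complex, which shortens the poly(A) tail and leads to decay. Zc3h12a (Regnase-1) is an endoribonuclease that cuts stem-loops in the 3′ UTRs of transcripts such as Il6. Elavl1 (HuR) binds AU-rich and U-rich sequence and mostly stabilises the RNA, Khsrp (KSRP) promotes decay through deadenylases and the exosome, and Hnrnpd (AUF1) promotes decay of some transcripts and stabilises others. Messenger RNA levels were measured here, not decay rates, protein levels or phosphorylation. In bulk samples fewer cells with a transcript and less of it per cell cannot be told apart.

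The Zfp36 family's preferred site is the nonamer TTATTTATT, and several of these genes carry it in their own 3′ UTRs. Sites were counted in the longest 3′ UTR annotated for each gene in GENCODE, which need not be the one in use. Zfp36 had 1 nonamer and 3 pentamers in 774 bases, Zfp36l1 1 and 9 in 1835 bases, and Zfp36l2 1 and 5 in 1822 bases. Elavl1 had 8 nonamers and 17 pentamers in a long 3′ UTR of 4218 bases. Zc3h12a, Khsrp and Hnrnpd had 0 nonamers, with 3, 1 and 10 pentamers. Among 11285 tested genes with an annotated 3′ UTR, 903 held at least 1 nonamer on the transcribed strand, or 8%. The sites of the 4 members are shown because the proteins' own transcripts have the letters that the family reads, with the nonamers (overlapping ones merged) in capitals. They lie on the minus strand of GRCm38 at chr7:28376951-28376980 for Zfp36, chr12:80108167-80108196 for Zfp36l1, chr17:84184914-84184943 for Zfp36l2 and chr8:4285786-4285815 for Elavl1.
Zfp36: ttatgacgactTTATTTATTgtattaagat
Zfp36l1: aaactgttggaTTATTTATTttagaaattc
Zfp36l2: aactatttaacTTATTTATTatcttgtgaa
Elavl1: tcatgaaaaTTATTTATTTATTTATTTATT

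Among the transcripts listed as targets of these proteins, Tnf had 5 nonamers, Cxcl2 4 and Csf2 4, the most of any. Cd274 had 1, fewer than Cxcl1, Lif, Plk3 and Dusp1 with 2 each, so its number of nonamers did not place it here. It had the lowest adjusted p of the listed Zfp36 family targets between C3a and C3aRA, given below. Tnf encodes tumour necrosis factor, Cxcl2 a neutrophil chemokine, Csf2 the growth factor GM-CSF and Cd274 the T cell checkpoint ligand PD-L1. Their windows are shown for comparison with the single sites of the Zfp36 family members. The windows lie at chr17:35199681-35199710 (minus strand) for Tnf, chr5:90905325-90905354 (plus strand) for Cxcl2, chr11:54247327-54247356 (minus strand) for Csf2 and chr19:29388066-29388095 (plus strand) for Cd274. Repeated overlapping nonamers fill the windows of Tnf, Csf2 and Elavl1, whereas those of Zfp36, Zfp36l1, Zfp36l2 and Cd274 hold an isolated copy. A match of letters is a description and was not tested for binding.
Tnf: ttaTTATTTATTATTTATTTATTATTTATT
Cxcl2: cTTATTTATTtatctatgtatTTATTTATT
Csf2: tttaaatatTTATTTATTTATTTATTTATT
Cd274: ttaatttaataaatatttTTATTTATTaaa

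Library totals ran from 12934794 to 20479002 counts, and the lowest level told from 0, taken as 3 counts in a library, was 0.146 to 0.232 CPM (counts scaled by the library total), which covers counting error only. Microglial and myeloid markers summed to 2140 to 2480 CPM with C3a, 2090 to 2190 with C3aRA and 1970 to 2180 in oxy-Hb. The sum was led by Cd68 (804 to 1000 CPM). Tmem119 (0.932 to 2.41) and P2ry12 (0.232 to 3.9), which mark resting microglia, were low. So were Aif1 (0.78 to 2.91 CPM) and Cx3cr1 (3.66 to 10.5 CPM). Few listed markers of other cell types were among the counted genes, against 12 of 13 microglial and myeloid markers. Gfap, 1 of 5 astrocyte markers, reached at most 0.698 CPM. Tubb3, 1 of 6 neuronal markers, reached 0.818 CPM, and Pecam1, 1 of 7 endothelial or fibroblast markers, 1.65 CPM. Sums over 2 of 6 red cell and 2 of 6 oligodendrocyte markers reached 1.62 and 12 CPM. No level was available for the other markers of these lists. The library C3a replicate 2 was unlike the rest: on the first principal component it scored -46.2 and the other 8 from -9.1 to 14, and ribosomal protein genes made up 48870 CPM of it and 31544 to 36154 CPM of the others. Its part in the results below was not tested beyond leaving it out. The labels do not say that replicates were separate cultures, so p-values may measure technical spread.

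Zfp36 (ENSMUSG00000044786, chromosome 7, 28376784 to 28380253 in GRCm38) was lowest with C3a and highest on average with C3aRA. Its TMM-scaled CPM, the unit of all single-gene levels below, were 13.5, 16.8 and 16.2 with C3a, 35.9, 25.2 and 32.4 with C3aRA, and 32.4, 24.0 and 19.3 in oxy-Hb. All 3 C3a libraries lay below every C3aRA and every oxy-Hb library, while the C3aRA and oxy-Hb libraries overlapped. The means were 15.5 ± 1.77 with C3a, 31.2 ± 5.44 with C3aRA and 25.2 ± 6.62 CPM in oxy-Hb (SD, n = 3 each). In the fit of all 9 libraries the log2 fold change was -1.0 ± 0.19 (SE) for C3a over C3aRA, a ratio of 0.499, and -0.70 ± 0.19 for C3a over oxy-Hb. For C3aRA over oxy-Hb it was 0.30 ± 0.19, with groups that overlapped. The oxy-Hb value rests much on replicate 1: without it C3a over oxy-Hb was -0.48 and C3aRA over oxy-Hb 0.53. Without C3a replicate 2, C3a over C3aRA was -1.07.

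Zfp36l1 (ENSMUSG00000021127, chromosome 12, 80107754 to 80113013), the least abundant member per length, did not separate the groups. It had 8.47, 5.10 and 8.92 CPM with C3a, 8.89, 9.37 and 10.3 with C3aRA, and 8.74, 14.4 and 8.0 in oxy-Hb. C3a replicate 2 was the lowest and oxy-Hb replicate 2 the highest of the 9, and each pair of groups overlapped. The log2 fold changes were -0.35 ± 0.26 for C3a over C3aRA, -0.48 ± 0.26 for C3a over oxy-Hb and -0.13 ± 0.25 for C3aRA over oxy-Hb (SE). Without C3a replicate 2 the C3a over C3aRA value was -0.14, and without oxy-Hb replicate 2 the C3a over oxy-Hb value was -0.16 and the C3aRA over oxy-Hb value turned to 0.19.

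Zfp36l2 (ENSMUSG00000045817, chromosome 17, 84183931 to 84187947), the most abundant of the 3 family members, had 40.1, 48.1 and 51.9 CPM with C3a. It had 37.4, 40.1 and 44.1 CPM with C3aRA, and 46.1, 51.7 and 43.0 CPM in oxy-Hb. The 3 groups overlapped, with log2 fold changes of 0.20 ± 0.13 for C3a over C3aRA, -0.01 ± 0.13 for C3a over oxy-Hb and -0.21 ± 0.13 for C3aRA over oxy-Hb (SE). Unlike Zfp36, its C3a over C3aRA value was positive.

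The makeup of the Zfp36 family also differed between C3a and the other groups. Zfp36 supplied 22.3 ± 1.53% of the family's counts with C3a, 38.3 ± 5.01% with C3aRA and 30.4 ± 5.82% in oxy-Hb (SD, n = 3 each). The C3a shares, 21.1% to 24.0%, lay below the C3aRA shares of 33.8% to 43.7% and the oxy-Hb shares of 26.7% to 37.1%. Zfp36l2 supplied 66.9 ± 2.09% with C3a, 50.0 ± 4.14% with C3aRA and 57.2 ± 4.16% in oxy-Hb. The summed level of the 3 genes was 69.7 ± 7.50 CPM with C3a, 81.2 ± 6.12 with C3aRA and 82.6 ± 10.7 CPM in oxy-Hb, and these ranges overlapped. Shares of counts do not correct for transcript length and follow from the same counts as the levels.

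Zc3h12a (ENSMUSG00000042677, chromosome 4, 125118423 to 125127840) was also lowest with C3a. It had 9.24, 9.11 and 7.98 CPM with C3a, 9.75, 12.1 and 11.7 with C3aRA, and 14.6, 13.3 and 11.2 in oxy-Hb. The C3a libraries lay below all others, by a small gap to C3aRA replicate 1, and the C3aRA and oxy-Hb libraries overlapped. The log2 fold change was -0.57 ± 0.17 for C3a over oxy-Hb, -0.35 ± 0.17 for C3a over C3aRA and -0.22 ± 0.17 for C3aRA over oxy-Hb (SE). Zfp36 had its highest mean with C3aRA, whereas Zc3h12a had its highest mean in oxy-Hb.

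Elavl1 (ENSMUSG00000040028, chromosome 8, 4285382 to 4325413), the stabilising factor, varied least of the 7. It had 80.0, 82.1 and 88.0 CPM with C3a, 91.9, 90.7 and 85.8 with C3aRA, and 84.3, 84.7 and 84.1 in oxy-Hb. The log2 fold changes were -0.10 ± 0.10 for C3a over C3aRA, -0.02 ± 0.10 for C3a over oxy-Hb and 0.08 ± 0.10 for C3aRA over oxy-Hb (SE). The C3aRA libraries lay just above all 3 oxy-Hb libraries, which were very close to each other.

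Khsrp (ENSMUSG00000007670, chromosome 17, 57021058 to 57031507) was lower with C3a than in oxy-Hb. It had 86.4, 73.2 and 83.3 CPM with C3a, 92.3, 76.1 and 91.9 with C3aRA, and 104.7, 106.0 and 90.1 in oxy-Hb. The C3a and oxy-Hb libraries did not overlap, and the log2 fold change between them was -0.31 ± 0.12 (SE). Corrected for length and GC content of the transcripts, it was -0.16. The values for C3a over C3aRA, -0.10 ± 0.12, and C3aRA over oxy-Hb, -0.21 ± 0.12, came from groups that overlapped.

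Hnrnpd (ENSMUSG00000000568, chromosome 5, 99955935 to 99978938) differed in the C3aRA group. It had 59.9, 77.4 and 80.0 CPM with C3a, 59.9, 51.9 and 58.7 with C3aRA, and 75.4, 64.4 and 80.4 in oxy-Hb. The C3aRA libraries lay below all others, although C3aRA replicate 1 and C3a replicate 1 were nearly equal. The log2 fold change was -0.37 ± 0.13 for C3aRA over oxy-Hb, 0.35 ± 0.13 for C3a over C3aRA and -0.02 ± 0.13 for C3a over oxy-Hb (SE).

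**Figure D1:**
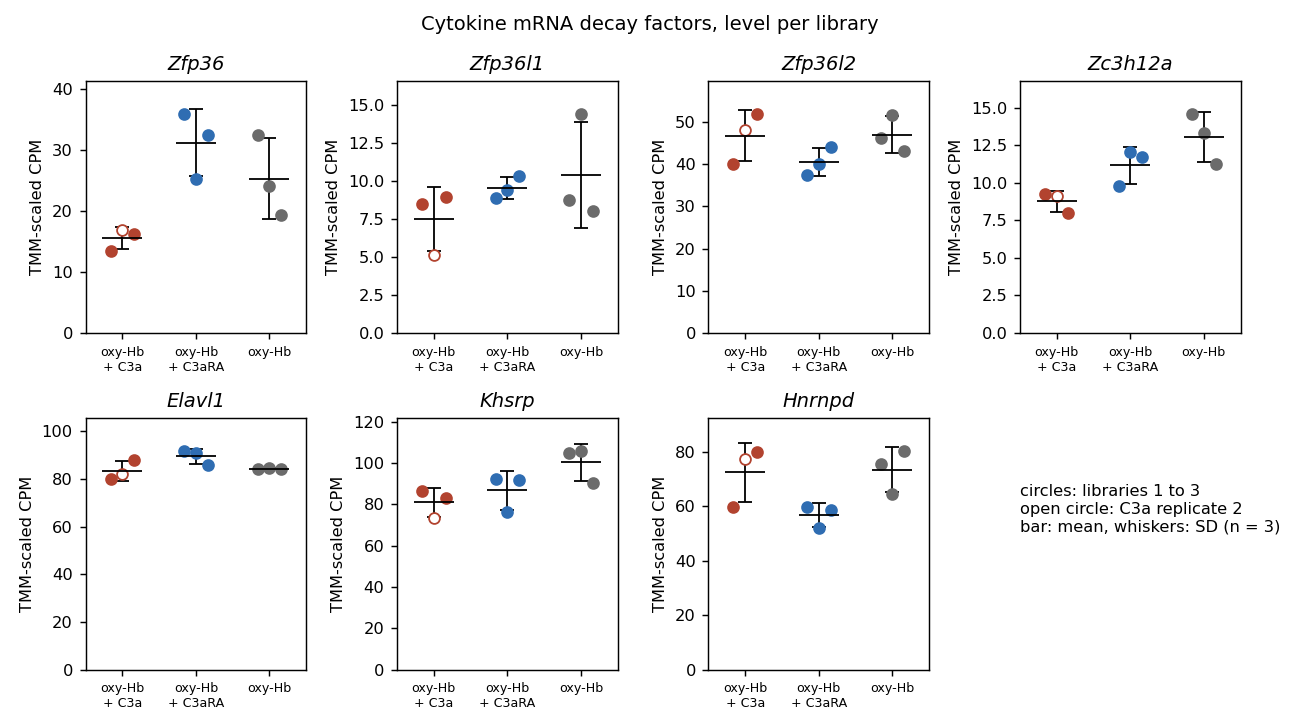
Level of each of the 7 decay factors (TMM-scaled CPM, vertical axis from 0) in each library of oxy-Hb with C3a, oxy-Hb with C3aRA and oxy-Hb. Circles are libraries, bars the mean and whiskers the SD (n = 3), and the open circle is C3a replicate 2. The Zfp36 libraries with C3a, 13.5 to 16.8 CPM, lie below all others, and the Elavl1 libraries lie within a narrow band.

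Across the 7 genes, 3 did not overlap between C3a and C3aRA, with Zfp36 and Zc3h12a lower and Hnrnpd higher, where 28.8% of all tested genes did not overlap (14.1% higher and 14.7% lower). Between C3a and oxy-Hb 3 did not overlap, Zfp36, Zc3h12a and Khsrp, all lower with C3a, where 27.8% of all genes did not overlap (13.2% higher and 14.6% lower). Between C3aRA and oxy-Hb Elavl1 was higher and Hnrnpd lower without overlap, where 22.9% of all genes did not overlap (11.9% higher and 11% lower). At an adjusted p below 0.05 in edgeR's quasi-likelihood test over all genes, Zfp36 was the 1 member called between C3a and C3aRA (6.19% of all genes called, 2.87% higher and 3.32% lower), and 0 were called between C3a and oxy-Hb (3.94%, 0.905% higher and 3.04% lower). Between C3aRA and oxy-Hb 0 of the 7 and 0 genes in all were called (0%), where 1153 genes (8.15%) had an unadjusted p below 0.05 and DESeq2 called 19 and limma-voom 0. Because the members were chosen from these contrasts, nothing is read from their counts. These calls changed with single libraries and with the processing. Zfp36 was not called between C3a and C3aRA without C3aRA replicate 1 (-0.89) or replicate 3 (-0.97), and was called between C3a and oxy-Hb without C3a replicate 2 (-0.77) or oxy-Hb replicate 3 (-0.85). Zfp36 was also called between C3a and oxy-Hb with total count scaling (-0.79), without the count filter (-0.70) and by DESeq2 (-0.69). The same held with a filter at a mean of 5 CPM (-0.72) and in each fit with the length and GC correction (-0.72 to -0.67). In all, Zfp36 was called between C3a and oxy-Hb in 9 of 21 alternatives. Zc3h12a was called between C3a and oxy-Hb without C3a replicate 2 (-0.61), with total count scaling (-0.66) and by DESeq2 (-0.57). Hnrnpd was called between C3a and C3aRA without C3a replicate 1 (0.48) and between C3aRA and oxy-Hb without C3a replicate 2 (-0.37). Between C3aRA and oxy-Hb it was also called without C3a replicate 2 after the length and GC correction (-0.42). The fit of the 2 groups alone called it too (-0.37), where 603 genes in all were called.

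The median log2 fold change of the 7 genes was -0.10 for C3a over C3aRA, against 0.01 for all tested genes. For C3a over oxy-Hb the median was -0.31, against 0.00, and all 7 values were negative, those of Zfp36l2, Elavl1 and Hnrnpd by less than 1 SE. The values of Zfp36l2, Elavl1 and Hnrnpd turned positive in some alternative fits. For C3aRA over oxy-Hb the median was -0.21, against -0.01, with 5 values negative and 2 positive. The C3a and C3aRA comparisons with oxy-Hb share the 3 oxy-Hb libraries.

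**Figure D2:**
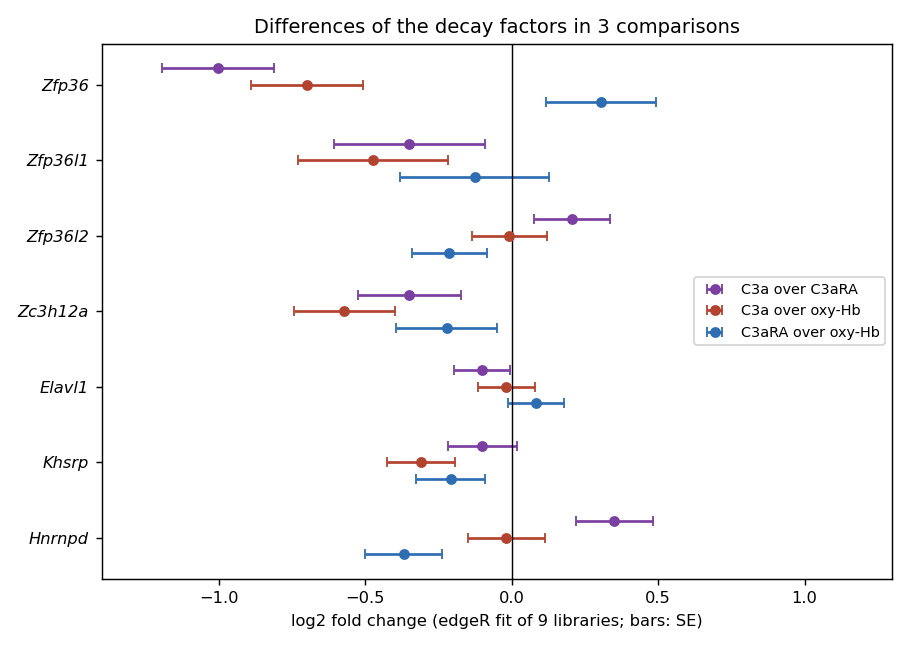
Log2 fold change of each decay factor (horizontal axis, edgeR fit of 9 libraries, bars SE) for C3a over C3aRA, C3a over oxy-Hb and C3aRA over oxy-Hb. Zfp36 lies farthest to the left, at -1.0 for C3a over C3aRA, while the Elavl1 points lie between -0.10 and 0.08.

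Levels of different genes were compared per kilobase of the longest annotated transcript. With C3a the order from high to low was Khsrp (20.4 CPM per kilobase), Elavl1 (14.5), Zfp36l2 (13.2), Hnrnpd (10.6), Zfp36 (5.56), Zc3h12a (3.19) and Zfp36l1 (2.51). The gaps from Elavl1 to Zfp36l2 and from Zc3h12a to Zfp36l1 were smaller than the larger SD of the pair. With C3aRA Zfp36, at 11.2 CPM per kilobase, stood above Hnrnpd (8.34) and within the spread of Zfp36l2 (11.5). In oxy-Hb the order was that of C3a, with Zfp36 at 9.04 and Hnrnpd at 10.8 CPM per kilobase and a gap between them that was smaller than the SD of Zfp36. The annotated Zfp36 transcript has a long 5′ extension, so a shorter transcript in use would give Zfp36 a higher level per length.

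Set against Elavl1 in the same library, which removes the scaling between libraries, Zfp36 had 16.9, 20.5 and 18.5 counts per 100 Elavl1 counts with C3a. It had 39.0, 27.8 and 37.8 with C3aRA, and 38.4, 28.3 and 22.9 in oxy-Hb. The C3a ratios lay below all others, as the levels did. Zc3h12a averaged 10.6 ± 1.33 counts per 100 Elavl1 counts with C3a, 12.5 ± 1.65 with C3aRA and 15.5 ± 1.98 in oxy-Hb (SD, n = 3 each). For Zc3h12a the C3a and C3aRA ratios overlapped, while the C3a and oxy-Hb ratios did not. A ratio shows unequal change of its 2 genes and does not show which of them differed.

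**Figure D3:**
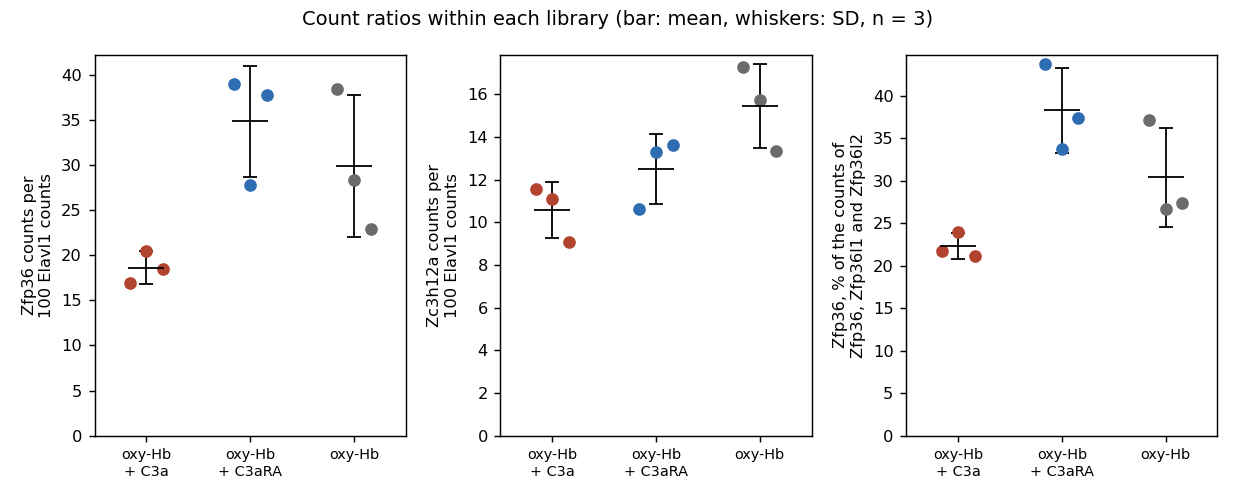
Counts of Zfp36 and of Zc3h12a per 100 Elavl1 counts, and the share of Zfp36 in the counts of the Zfp36 family, in each library (circles) with mean and SD (n = 3). The Zfp36 ratios with C3a, 16.9 to 20.5, lie below those with C3aRA, 27.8 to 39.0, and oxy-Hb, 22.9 to 38.4.

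In the authors' deposited table, the log2 fold changes of C3a over oxy-Hb were -0.69 for Zfp36, -0.56 for Zc3h12a, -0.47 for Zfp36l1 and -0.30 for Khsrp. The authors' deposited table for C3aRA over oxy-Hb gave 0.31 for Zfp36, -0.21 for Zfp36l2, -0.21 for Khsrp and -0.36 for Hnrnpd. These came from the same counts and differed from the values above by at most about 0.01.

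Of the 7 genes, 6 overlap an annotated gene on the other strand, and the strand setting of the counting is not given, so shared reads cannot be told apart. Gm44710, antisense to Zfp36 over 1274 bases, had 0.118 to 0.696 CPM, and the partners of Zfp36l1, Khsrp and Hnrnpd reached at most 1.98 CPM. Ccl25, a chemokine gene that shares 204 bases with Elavl1, had 16.7 to 28.4 CPM. No level was available for AC132455.1, antisense to Zfp36l2 over 2192 bases.

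In RefSeq promoter sequences (GRCm38.p6), 6 of the 7 genes matched an entry, and the 250 bases before the start were searched on both strands for 9 motifs. Zfp36 held a CArG box, the sequence read by serum response factor, 58 to 49 bases before its start, and an EGR site (GCGGGGGCG or GCGTGGGCG) 105 to 97 bases before it. A CArG box was found in 1.47% and an EGR site in 3.06% of 32851 promoters. An Sp1 site (GGGCGG) on the other strand of Zfp36 shared 1 base position with the CArG box. The other matches were 5 Sp1 sites in Zc3h12a, 3 in Hnrnpd and 1 in Khsrp (32.74% of promoters hold one), 2 TGACG motifs, part of the cAMP response element, in Khsrp (17.77%), and an AP-1 site (TGANTCA, 6.75%) and a TATA box (TATAAA, 12.37%) in Zfp36l1. Elavl1 had 0 matches. The RefSeq start of Zfp36 lies 1025 bases inside the gene as the count tables delimit it, so these letters fall in an annotated 5′ exon of the longer model. The 2 Zfp36 windows are shown because Zfp36 is the member whose level differed most, with the motif in capitals, on the minus strand at chr7:28379267-28379296 (CArG) and chr7:28379314-28379343 (EGR).
Zfp36 CArG: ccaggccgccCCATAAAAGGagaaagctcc
Zfp36 EGR: gagctacgccGCGGGGGCGcgtcccggaag

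Over the 9 libraries, the genes of at least 5 CPM whose centred log2 CPM lay closest to Zfp36 were Ss18l1, a chromatin remodelling subunit (root mean square difference 0.139), Mib2, a ubiquitin ligase (0.162), Amigo1 (0.169), Cep85, a centrosomal protein (0.177), and Cd274 (0.190). The median over 10108 genes was 0.503. Ss18l1 averaged 10.2 CPM with C3a, 20.3 with C3aRA and 16.4 in oxy-Hb, and Cep85 240.6, 418.6 and 347.7 CPM in the same order of groups. Closest to Zc3h12a were Plekhn1 (0.074), Zcchc14 (0.077), Zdhhc1, a palmitoyltransferase (0.079), Micall2 (0.087) and Tnk2, a tyrosine kinase (0.089), against a median of 0.327. The 9 points are 3 groups of 3 libraries, and no cause of the likeness was tested.

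The rest of the decay pathway was described with 8 lists of 163 genes, the 7 members left out, of which 150 were tested. Between C3a and C3aRA 6 of them rose and 9 fell (10% of the 150, against 6.19% of all genes). Between C3a and oxy-Hb 2 rose and 4 fell (4%, against 3.94%). Between C3aRA and oxy-Hb 0 were called in the edgeR fit of 9 libraries and 16 in the fit of the 2 groups alone. The numbers of calls depended on single libraries. Between C3a and C3aRA 42 were called without C3a replicate 2, 27 without C3a replicate 1, 2 without C3aRA replicate 1, and 4 to 9 without C3a replicate 3, C3aRA replicate 2 or 3, or oxy-Hb replicate 1 or 2. Between C3a and oxy-Hb 21 were called without C3a replicate 2, 18 without C3a replicate 1, 2 or 3 without C3a replicate 3 or any C3aRA library, and 0 without oxy-Hb replicate 1 or 2. Between C3aRA and oxy-Hb 12 were called without C3a replicate 2. Which listed genes are named followed from the lowest adjusted p per list.

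Among 28 other tested RNA-binding proteins that read specific sequences, Cpeb4 fell and Syncrip and Hnrnpa0 rose with C3a against C3aRA (10.7%, against 6.19% of all genes). Cpeb4, a cytoplasmic polyadenylation factor, had 215.1, 157.6 and 177.6 CPM with C3a, 407.8, 327.9 and 293.9 with C3aRA, and 275.9, 232.6 and 250.2 in oxy-Hb. All C3a libraries lay below the others, and the log2 fold change for C3a over C3aRA was -0.90 ± 0.14 (SE; edgeR, Benjamini-Hochberg adjusted p = 0.00556). Its call held in 9 of 9 fits that left out 1 library. Syncrip, an hnRNP protein, averaged 404.9 ± 48.8 CPM with C3a and 294.5 ± 13.3 with C3aRA (SD, n = 3 each; log2 fold change 0.46, edgeR adjusted p = 0.0356). Hnrnpa0, itself a substrate of the kinase MK2, averaged 72.4 ± 5.90 CPM with C3a and 54.7 ± 2.95 with C3aRA (SD, n = 3 each; log2 fold change 0.41, edgeR adjusted p = 0.0388). The calls of Syncrip and Hnrnpa0 were lost without C3a replicate 3, any C3aRA library, or oxy-Hb replicate 1 or 2, that of Hnrnpa0 also without oxy-Hb replicate 3. Over all 9 such fits their log2 fold changes ran from 0.37 to 0.53 and 0.33 to 0.46. The list's median was -0.09, against 0.01 for all genes.

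Of 20 deadenylation genes, Btg2 fell with C3a against C3aRA (5%, against 6.19% of all genes). Pan2 and Cnot3 fell with C3a against oxy-Hb (10%, against 3.94% of all genes). Pan2, the catalytic subunit of the PAN2-PAN3 deadenylase, had 23.7, 17.0 and 24.8 CPM with C3a, 31.7, 26.5 and 34.1 with C3aRA, and 40.1, 37.3 and 31.9 in oxy-Hb. The log2 fold change for C3a over oxy-Hb was -0.74 ± 0.16 (SE; edgeR adjusted p = 0.0226), and the C3a libraries lay below both other groups. Cnot3, a CCR4-NOT subunit, averaged 15.4 ± 2.23 CPM with C3a and 24.6 ± 5.07 in oxy-Hb (SD, n = 3 each; log2 fold change -0.68, edgeR adjusted p = 0.0397). Btg2, which recruits the same complex, averaged 7.98 ± 1.25 CPM with C3a and 13.2 ± 1.83 with C3aRA (SD, n = 3 each; log2 fold change -0.72, edgeR adjusted p = 0.0440). The call of Pan2 did not hold when oxy-Hb replicate 1 or 2 was left out, with values of -0.84 to -0.59 over all such fits. The Cnot3 and Btg2 calls held in 3 and 2 of 9 fits and were lost without C3a replicate 3, any C3aRA library or oxy-Hb replicate 1 or 2, that of Btg2 also without oxy-Hb replicate 3, with values of -0.83 to -0.55 and -0.83 to -0.60. The list's medians were -0.11 for C3a over C3aRA and 0.04 for C3a over oxy-Hb.

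Downstream of deadenylation the shares of genes called between C3a and C3aRA were near that of all genes, with 5.26% for decapping and 5.56% for the exosome, against 6.19%. Between C3a and oxy-Hb 1 of 10 genes of the UPF1 list was called (10%, against 3.94% of all genes). With C3a replicate 2 left out, 4 of 18 exosome genes were called, all higher with C3a than with C3aRA, where 12.5% of all genes were called. Of 19 decapping and 5′-to-3′ decay genes, Lsm6, a ring subunit that helps decapping and also serves splicing, rose with C3a against C3aRA (85.3 ± 8.82 and 62.1 ± 3.18 CPM, SD, n = 3 each; log2 fold change 0.46, edgeR adjusted p = 0.0466). Of 18 exosome and 3′-to-5′ decay genes, Exosc2, a cap subunit of the exosome, rose (105.3 ± 11.7 and 79.8 ± 3.64 CPM, SD, n = 3 each; log2 fold change 0.40, edgeR adjusted p = 0.0487). Upf1, the helicase that works with Regnase-1 and in nonsense-mediated decay, was the 1 of 10 genes in its list to fall with C3a against oxy-Hb. It had 54.1, 38.8 and 50.5 CPM with C3a, 59.8, 52.6 and 55.8 with C3aRA, and 67.8, 67.9 and 67.8 in oxy-Hb, a log2 fold change of -0.50 ± 0.13 (SE; edgeR adjusted p = 0.0409). Its C3a libraries lay below every oxy-Hb library, and so did its C3aRA libraries (log2 fold change -0.27 for C3aRA over oxy-Hb). The C3a and C3aRA libraries of Upf1 overlapped (-0.23 for C3a over C3aRA). The length and GC correction gave -0.31, which was not called. The calls of Lsm6, Exosc2 and Upf1 held in 3, 2 and 2 of 9 fits that left out 1 library. They were lost without C3a replicate 3, any C3aRA library or oxy-Hb replicate 1 or 2, those of Exosc2 and Upf1 also without oxy-Hb replicate 3. The values ran from 0.41 to 0.55 for Lsm6, 0.35 to 0.49 for Exosc2 and -0.59 to -0.38 for Upf1. Exosc2 was also not called after the length and GC correction (0.30).

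The kinase p38 and its substrate MK2 phosphorylate Zfp36, and 14-3-3 proteins then hold it away from the deadenylase. Of 24 tested genes of this control, 3 were called between C3a and C3aRA (12.5%, against 6.19% of all genes). Ywhaz and Ywhah, both encoding 14-3-3 proteins, rose with C3a, and Dusp16, a phosphatase of stress kinases, fell. Against oxy-Hb, Ywhaz and Ywhah rose with C3a (8.33%, against 3.94% of all genes). The list's medians were 0.08 for C3a over C3aRA and 0.09 for C3a over oxy-Hb, against 0.01 and 0.00 for all genes. Ywhaz had 386.9, 452.6 and 425.5 CPM with C3a, 286.8, 290.1 and 292.2 with C3aRA, and 291.8, 302.6 and 318.9 in oxy-Hb. The C3a libraries lay above both other groups, with log2 fold changes of 0.54 ± 0.10 over C3aRA (SE; edgeR adjusted p = 0.0091) and 0.47 ± 0.10 over oxy-Hb (edgeR adjusted p = 0.0167). Ywhah averaged 202.8 ± 21.1 CPM with C3a, 149.9 ± 11.9 with C3aRA and 146.8 ± 14.2 in oxy-Hb (SD, n = 3 each; edgeR adjusted p = 0.0377 and 0.0363 for the 2 comparisons of C3a). Dusp16 averaged 39.1 ± 8.73 CPM with C3a and 60.6 ± 5.74 with C3aRA (SD, n = 3 each; log2 fold change -0.63, edgeR adjusted p = 0.0287). C3a replicate 2 was the highest C3a library for Ywhaz and Ywhah and the lowest for Dusp16. Without it the calls held, with Ywhaz at 0.48 over C3aRA and 0.41 over oxy-Hb, Ywhah at 0.34 and 0.37, and Dusp16 at -0.47. The Ywhaz calls were lost without replicate 1 or 2 of the group that C3a was compared with (values of 0.48 to 0.61 and 0.41 to 0.54). The Ywhah calls held in 2 of 9 fits each and were lost without C3a replicate 3 or any C3aRA or oxy-Hb library (0.34 to 0.50 and 0.37 to 0.54). The Dusp16 call was lost without any C3aRA library or oxy-Hb replicate 2 (-0.76 to -0.47).

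Of 26 tested transcripts listed as targets of the Zfp36 family, 6 fell and 0 rose with C3a against C3aRA, or 23.1%, against 6.19% of all genes. The list was chosen with earlier results of these libraries known, so the count is not independent evidence of its direction. Cd274 had 27.2, 22.7 and 21.6 CPM with C3a, 54.1, 46.3 and 46.7 with C3aRA, and 45.1, 37.5 and 32.4 in oxy-Hb. Its C3a libraries lay below all others, with a log2 fold change over C3aRA of -1.04 ± 0.14 (SE; edgeR adjusted p = 0.0044). Tnf had 149.5, 148.7 and 135.0 CPM with C3a, 245.0, 221.0 and 205.0 with C3aRA, and 183.2, 171.2 and 143.0 in oxy-Hb. Its C3a libraries lay below the C3aRA libraries and overlapped with oxy-Hb, and the log2 fold change over C3aRA was -0.63 ± 0.11 (SE; edgeR adjusted p = 0.0104). Il6, encoding interleukin-6, was low, with 2.72, 2.81 and 2.66 CPM with C3a, 6.37, 6.48 and 6.76 with C3aRA, and 5.03, 4.34 and 3.42 in oxy-Hb (log2 fold change over C3aRA -1.26 ± 0.24, SE; edgeR adjusted p = 0.0126).

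The other 3 called targets were Nfkbiz, an atypical NF-kB inhibitor protein, Ptgs2, the inducible prostaglandin synthase COX-2, and Plk2, a polo-like kinase that lies outside the naming rule and completes the count. Nfkbiz averaged 51.2 ± 11.9 CPM with C3a and 86.1 ± 4.07 with C3aRA (SD, n = 3 each; log2 fold change -0.75, edgeR adjusted p = 0.0142). Ptgs2 averaged 70.4 ± 25.9 CPM with C3a and 128.4 ± 14.0 with C3aRA (SD, n = 3 each; log2 fold change -0.87, edgeR adjusted p = 0.0354). Plk2 had a log2 fold change of -0.67 ± 0.15 (SE; edgeR adjusted p = 0.0206). In fits that left out 1 library the Cd274 call held in 9 of 9, and that of Tnf was lost without C3aRA replicate 1 (-0.56). Those of Il6 and Nfkbiz were lost without C3aRA replicate 1 or 3 (-1.28 to -1.23 and -0.93 to -0.60 over the fits), and that of Plk2 without C3a replicate 2 or 3 or C3aRA replicate 1 or 3 (-0.84 to -0.52). The Ptgs2 call was lost without C3a replicate 2 or 3, any C3aRA library or oxy-Hb replicate 2 (-1.18 to -0.64), and with the length and GC correction, which left the value at -0.81. Zfp36 is itself a target of the family and was left out of the list.

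The list as a whole had a median log2 fold change of -0.35 for C3a over C3aRA, -0.02 for C3a over oxy-Hb and 0.32 for C3aRA over oxy-Hb, against 0.01, 0.00 and -0.01 for all genes. Single libraries moved these medians: C3a over C3aRA was -0.13 without C3a replicate 3 and -0.56 without C3a replicate 2, and C3a over oxy-Hb was 0.16 and -0.22 in the same fits. With C3a, 9 of 26 lay below C3aRA without overlap and 1 above it, where 14.7% of all genes lay below and 14.1% above. With C3aRA, 13 of 26 lay above oxy-Hb and 0 below it without overlap, where 11.9% of all genes lay above. None passed the adjusted threshold in the edgeR fit of 9 libraries. In the edgeR fit of the 2 groups alone, 8 of 24 tested targets were higher with C3aRA and 0 lower, where 4.43% of all genes were called. Against oxy-Hb 1 target, Cd274, fell with C3a (log2 fold change -0.68 ± 0.14, SE; edgeR adjusted p = 0.0209), a call lost without C3a replicate 3 or oxy-Hb replicate 1 or 2 (-0.78 to -0.55 over the fits). The 3 comparisons share their libraries. Without C3a replicate 2, 15 targets were lower and 1 higher with C3a than with C3aRA, where 12.5% of all genes were called, and 6 were higher with C3aRA than in oxy-Hb, where 3.25% were called. Without C3aRA replicate 1 or 3 the number lower with C3a than with C3aRA was 1 or 2, and without C3a replicate 3 it was 4.

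**Figure D4:**
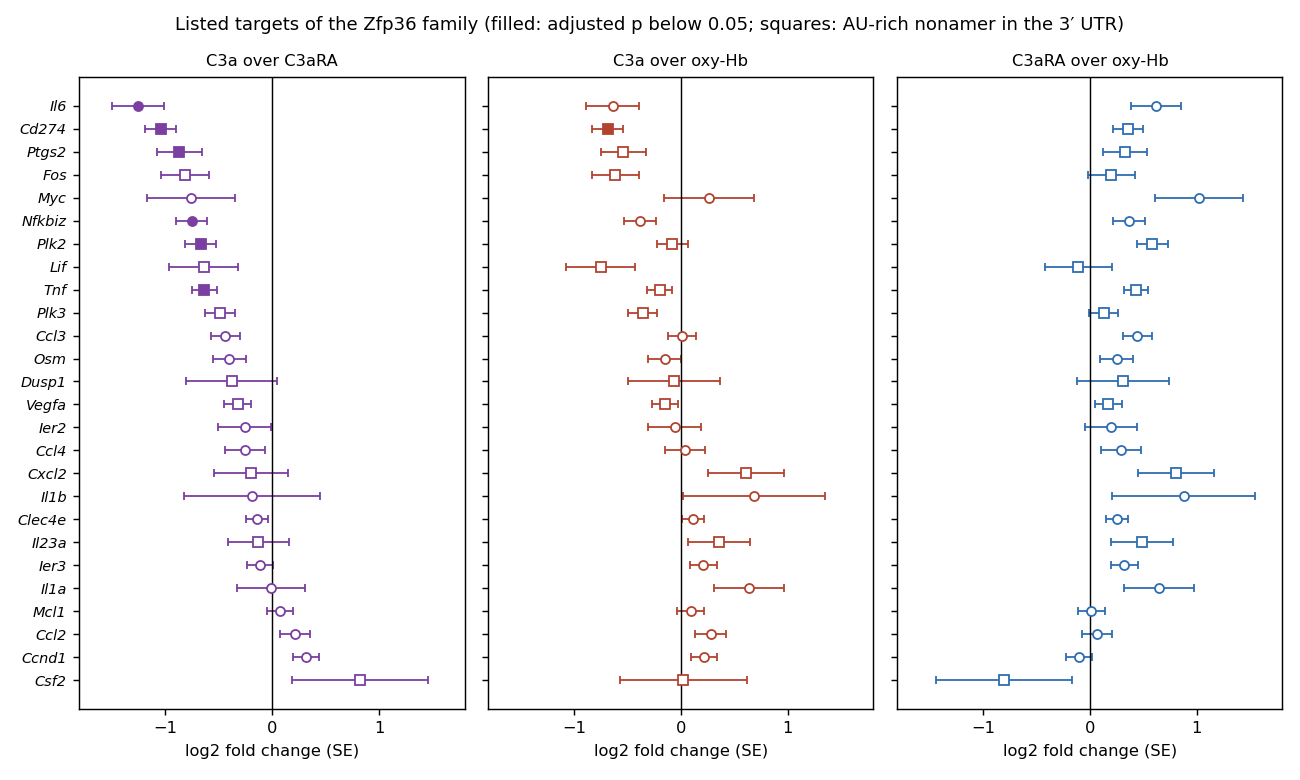
Log2 fold change (horizontal axes, edgeR fit, bars SE) of the 26 tested listed targets of the Zfp36 family for C3a over C3aRA, C3a over oxy-Hb and C3aRA over oxy-Hb. Filled symbols have an adjusted p below 0.05 and squares mark transcripts with the nonamer in the 3′ UTR. In the left panel 22 of 26 values are below 0, and in the right panel 23 are above 0.

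Of these 26 targets 12 held a nonamer and 14 did not. With C3a against C3aRA 4 of the 12 and 2 of the 14 fell, and the medians were -0.56 and -0.22. When C3a replicate 2 was left out, 7 of the 12 and 8 of the 14 were called lower, with medians of -0.65 and -0.39, so the shares were alike in that fit. For C3aRA over oxy-Hb the medians were 0.32 and 0.31. Cxcl2, with 4 nonamers, had 8.59, 16.4 and 4.26 CPM with C3a, 11.9, 11.8 and 10.1 with C3aRA, and 6.66, 5.55 and 7.02 in oxy-Hb, so that its C3a libraries spanned the other groups. Csf2, with 4 nonamers, averaged 0.511 CPM over the libraries, too near the floor for a statement. Il6 fell without holding a nonamer, with 10 pentamers in its 3′ UTR.

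Of 13 tested transcripts listed as targets of Regnase-1, Il6, Nfkbiz and Ptgs2 fell with C3a against C3aRA and 0 rose (23.1%, against 6.19% of all genes), and these 3 are also in the Zfp36 list. This list too was chosen with earlier results known. Its medians were -0.19 for C3a over C3aRA, 0.02 for C3a over oxy-Hb and 0.15 for C3aRA over oxy-Hb, against 0.01, 0.00 and -0.01 for all genes. The first of these was -0.03 without C3a replicate 2, with 4 of 13 called lower.

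Over all genes with an annotated 3′ UTR the nonamer went with little shift of the typical transcript. The median log2 fold change for C3a over C3aRA was -0.04 in 199 genes with 2 or more nonamers, -0.08 in 704 genes with 1 and 0.02 in 10382 genes with 0. Among genes with 2 or more, 21 fell and 1 rose, 11.1% in all, and among those with 0, 365 fell and 352 rose, 6.91% in all. For C3a over oxy-Hb, 13 of the 199 fell and 1 rose, against 343 falls and 108 rises among genes with 0. These counts were 21 and 8 of 200 without C3a replicate 2, without C3a replicate 1 20 and 8, without oxy-Hb replicate 1 or 2 2 and 0, and 5 to 8 falls with 0 rises without any other library. The length and GC correction gave 8 falls and 0 rises. The groups also differed in 3′ UTR length, with medians of 2773 and 1049.5 bases for 2 or more and 0 nonamers, and in GC content, 46.3% and 50.4%. After the length and GC correction 19 fell and 8 rose of the 199 between C3a and C3aRA, with a median of 0.05. Without C3a replicate 2, 28 fell and 13 rose of 200, with a median of 0.03, and without C3aRA replicate 1 1 fell and 0 rose. The part of length, base composition and single libraries in these counts was not tested further.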

How the data were processed

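RNA of BV2 cells was sequenced in 9 libraries analysed here, 3 each of oxy-Hb with C3a, oxy-Hb with C3aRA and oxy-Hb. The authors deposited 2 tables of 22935 genes with raw read counts, coordinates and their own log2 fold change and p-value per gene. Both hold the same oxy-Hb counts (0 differed). Per the submitters' processing notes the builds were GRCm38 and mm10; aligner, counter, strand setting and test are not given here in the sources used.

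Groups came from the labels. Counts were fitted in edgeR 4.0.16 (R 4.3.3) with filterByExpr (minimum count 10), TMM scaling, 1 coefficient per group and the robust quasi-likelihood test. A call is a Benjamini-Hochberg adjusted p below 0.05 over 14146 genes. The biological coefficient of variation was 15.8%, and library totals set the counting error. Members and lists were chosen with earlier results of these data known. Named genes were the 7 members, up to 4 called genes with the lowest adjusted p per list and comparison, the 5 genes closest to Zfp36 and to Zc3h12a (log2 of CPM plus 0.5), and the transcripts with most nonamers. Transcripts, 3′ UTRs and windows came from GENCODE M21, with the longest annotated 3′ UTR taken for each gene, and promoters from RefSeq. Scripts were tested on simulated counts. Alternatives were other scalings, filters, tools (DESeq2 1.42.0, limma 3.58.1), 2-group fits, a replicate block, a length and GC correction and leaving out each library.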

Additional observations from a re-analysis of the deposited data

How the results depend on the processing

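Over the 9 fits that left out 1 library, genes called ran from 53 to 1827 for C3a over C3aRA (876 with all libraries), 54 to 1638 for C3a over oxy-Hb (558) and 0 to 475 for C3aRA over oxy-Hb (0), and listed genes from 2 to 42 (15), 0 to 21 (6) and 0 to 12 (0). The median of genes with 2 or more nonamers ran from -0.074 to 0.027 for C3a over C3aRA and was 0.051 after the length and GC correction. Genes called numbered 1559, 1346 and 19 by DESeq2 and 118, 99 and 603 in fits of the 2 groups alone, and without the count filter 1033 for C3a over oxy-Hb and 8 for C3aRA over oxy-Hb. Listed genes called were 25 (C3a over C3aRA) and 2 (C3aRA over oxy-Hb) without the filter, 28 and 12 (both C3a comparisons) by DESeq2, 5, 0 and 16 with 2 groups alone, and 24 after the length and GC correction (C3a over C3aRA). With that correction and C3a replicate 2 left out, genes called were 1976, 1102 and 677 and listed genes 46, 13 and 10. Of genes called between C3a and oxy-Hb 77.1% were lower with C3a, against 95.1% with total count scaling, 97% with 2 groups alone and 63.6% by DESeq2. Among named listed genes, the fit of the 2 groups alone kept only the calls of Cpeb4, Ywhaz, Cd274, Tnf and Il6 over C3aRA, and none over oxy-Hb. Total count scaling lost those of Syncrip, Hnrnpa0, Lsm6 and Exosc2 over C3aRA and of Ywhah over oxy-Hb. The Btg2 and Exosc2 calls were lost with limma-voom, and the Ptgs2 call without the count filter.

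Replicate numbers were not taken as pairs, as the labels do not say whether they mark a shared batch. Same-number libraries correlated by -0.152 to 0.324, with 5 of 9 pairs over 0.1, and different-number libraries by -0.28 to 0.129. Between C3a and oxy-Hb all 3 same-number pairs were over 0.1 (0.155, 0.324 and 0.269), and 8 of 9 libraries were closest to their own number. A shared batch was not tested, and the SE and p-values above come from the fit without a replicate block. With the replicate block 835 genes and 9 listed genes were called for C3a over oxy-Hb, 1210 and 23 for C3a over C3aRA, and with block and length and GC correction 1561, 994 and 7 genes and 31, 14 and 2 listed genes. With the block the Zfp36 value was -0.99 for C3a over C3aRA and -0.67 for C3a over oxy-Hb.

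Among members, the C3aRA over oxy-Hb value of Zfp36l1 changed sign without oxy-Hb replicate 2 (0.19). The C3a over C3aRA value of Khsrp kept its sign in 18 of 21 alternatives. The C3a over oxy-Hb values of Zfp36l2, Elavl1 and Hnrnpd kept theirs in 15, 18 and 16 of 21. Elavl1 moved by more than its replicate spread to -0.025 and -0.028 (C3a over C3aRA) with the length and GC correction, alone and with the block, to -0.11 and 0.021 (C3a and C3aRA over oxy-Hb) with total count scaling and to -0.085 (C3a over oxy-Hb) with the correction and C3a replicate 2 left out. Khsrp moved to 0.099 (C3a over C3aRA) and -0.081 (C3a over oxy-Hb) in that last fit, and to -0.156 and -0.163 (C3a over oxy-Hb) with the correction, alone and with the block. The causes were not tested. Total counts limit what genes near the floor, such as Csf2, can show.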
